A study of Mus musculus with 2 samples.

Results

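The genes described here are 10 histone deacetylases of class I (Hdac1, Hdac2, Hdac3 and Hdac8), class IIa (Hdac4, Hdac5 and Hdac7), class IIb (Hdac6 and Hdac10) and class IV (Hdac11), out of 43346 genes quantified. They were taken by name, as genes of the zinc-dependent family targeted by inhibitors that push MEL cells into differentiation. Which members an inhibitor hits was not tested. All 10 were matched by symbol to a gene identifier in both libraries. MEL is an immortalized mouse erythroleukemia line, and its polyadenylated RNA was sequenced from a single end. The labels give 1 group of 2 biological replicates, with no treatment, genotype change or time point named, and leave sex and age unstated. They do not say how the replicate cultures were related, so a difference between the replicates may be technical. A p-value between them sets these 2 libraries against counting error only and does not measure the spread between cultures.

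Replicate 1 held 67735380 and replicate 2 held 79923143 expected counts, which are model estimates of the reads of each gene. Of all genes, 11655 (26.9%) reached 1 TPM (a transcript level scaled by length and by the library's total) in both replicates. The labelled cell type was checked against markers: 7 of 7 erythroid markers, Gata1, Klf1 and Epor among them, stood between 35.9 and 376 TPM. Their summed level was 770 TPM in replicate 1 and 1416 TPM in replicate 2. Of these markers, Tfrc alone was higher in replicate 1 (178 TPM, against 80.65 TPM in replicate 2). All 9 markers of fibroblasts, T cells, B cells and macrophages stayed below 1 TPM, with a summed level of 0.71 TPM in replicate 1 and 1.34 TPM in replicate 2, and Dcn and Cd3e were listed at 0 in both. With 1 group there is no condition to compare, and the comparison the design allows is that of the replicates.

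Histone deacetylases remove acetyl groups from lysine side chains, in histones and in many other proteins. Class I enzymes work in the nucleus, where Hdac1 and Hdac2 are the catalytic subunits of the NuRD, SIN3, CoREST and MiDAC complexes and Hdac3 is that of the NCoR complex. Class IIa enzymes have little activity of their own on acetyl-lysine, bind MEF2 transcription factors and leave the nucleus when kinases create docking sites for 14-3-3 proteins. Hdac6 acts in the cytoplasm on tubulin and on the chaperone HSP90, Hdac10 removes the acetyl group of N8-acetylspermidine, and Hdac11 removes long fatty acyl groups. Inhibitors such as butyrate, trichostatin A and vorinostat make MEL cells stop dividing and fill with hemoglobin, which is why this family is of interest in the line.

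The promoters shown first belong to Hdac2 and Hdac7, the genes with the highest levels, because they differ in start sites and base composition. Each is the stretch of 250 bases before a RefSeq start site on GRCm38.p6 (mm10). The Hdac2 stretch lies at chr10:36974294-36974543 on the plus strand, the distal Hdac7 stretch at chr15:97844503-97844752 on the minus strand and the proximal Hdac7 stretch at chr15:97814864-97815113 on the minus strand. Capitals mark matches, on either strand, to short motifs. CCAAT is the box of that name. The letters GGGCGG are the core of the GC box. Promoters were also searched for TATAAA, the form of the TATA box used here. Sites for Gata factors were sought by their core, AGATAA. Klf1 and its relatives bind around CACCC. Ets factors were represented by the letters GAGGAA. Overlapping motifs share their capitals.
Hdac2: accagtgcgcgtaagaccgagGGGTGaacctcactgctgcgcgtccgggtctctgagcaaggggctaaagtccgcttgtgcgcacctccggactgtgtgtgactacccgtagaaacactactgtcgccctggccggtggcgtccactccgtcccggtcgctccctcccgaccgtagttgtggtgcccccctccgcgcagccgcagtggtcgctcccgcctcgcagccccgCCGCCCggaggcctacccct
Hdac7, distal start: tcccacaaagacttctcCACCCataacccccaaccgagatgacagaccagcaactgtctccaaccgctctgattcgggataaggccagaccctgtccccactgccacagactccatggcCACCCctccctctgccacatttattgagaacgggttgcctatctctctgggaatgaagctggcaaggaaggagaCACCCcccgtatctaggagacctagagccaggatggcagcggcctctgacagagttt
Hdac7, proximal start: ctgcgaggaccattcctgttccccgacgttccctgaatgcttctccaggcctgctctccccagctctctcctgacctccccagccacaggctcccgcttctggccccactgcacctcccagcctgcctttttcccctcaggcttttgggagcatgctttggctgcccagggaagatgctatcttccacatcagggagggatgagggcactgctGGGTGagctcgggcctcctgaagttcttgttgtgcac
The Hdac2 stretch has a GC content of 68.8% and 27 CpG dinucleotides, against medians of 52.4% and 6 over 32851 promoter stretches of the same length. It holds 1 match to the GC box core and 1 to the CACCC core. Both Hdac7 stretches are poorer in CpG, with 6 at the distal and 5 at the proximal start, and hold 3 and 1 matches to the CACCC core and none to the GC box core. The CACCC core is common, being present in 52.0% of all promoter stretches, and the GC box core is present in 32.7%. The CCAAT box is found in 33.8% of them, the Ets core in 23.3%, the TATA box in 12.4% and the Gata core in 9.99%. Among the 10 entries for 7 members, the TATA box was found in that of Hdac8 alone, the Gata core in 1 of 2 middle entries of Hdac7 alone, and the Ets core in none. A match describes the letters of a stretch and is not a measured binding site.

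Transcript pieces are shown because Hdac7, Hdac2 and Hdac10 are each read out as several RNA forms, whose shares are given further on. Their positions and letters follow GENCODE M21 on the same build. In Hdac7 an internal exon of 195 nt (chr15:97807594-97807788, minus strand) is skipped in some transcripts, and 72 nt at the 5′ side of another exon (chr15:97809968-97810039) depend on which acceptor is used. Both are entirely coding and divisible by 3, and all their letters are in capitals. In Hdac2 the transcript Hdac2-203 starts inside an intron of 316 nt and runs into exon 12 of the 14 exons of Hdac2-201 (chr10:36998354-36998453, plus strand), with the exon in capitals. In Hdac10 an exon is extended by 11 nt at its 3′ end (chr15:89126630-89126640, minus strand), shown in capitals between 25 bases on each side in the spliced RNA.
Hdac7, skipped exon: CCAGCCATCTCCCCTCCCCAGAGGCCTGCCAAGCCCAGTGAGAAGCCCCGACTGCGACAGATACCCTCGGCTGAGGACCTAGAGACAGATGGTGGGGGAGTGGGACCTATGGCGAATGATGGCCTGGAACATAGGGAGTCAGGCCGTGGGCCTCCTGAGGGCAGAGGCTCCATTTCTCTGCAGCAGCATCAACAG
Hdac7, acceptor-dependent part: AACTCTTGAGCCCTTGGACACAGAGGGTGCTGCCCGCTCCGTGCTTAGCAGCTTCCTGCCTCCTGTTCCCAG
Hdac2, intron into exon: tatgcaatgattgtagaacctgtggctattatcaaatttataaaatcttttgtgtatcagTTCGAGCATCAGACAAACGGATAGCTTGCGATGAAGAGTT
Hdac10, extended exon: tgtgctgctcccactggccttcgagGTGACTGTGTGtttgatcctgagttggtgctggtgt
The Hdac10 extension is not divisible by 3, so it does not keep the reading frame.

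All 10 genes were expressed, at levels from 3.96 TPM (mean, Hdac11) to 245 TPM (mean, Hdac2). Each reached 1 TPM in both replicates, 7 reached 10 TPM in both, and 4 (Hdac1, Hdac2, Hdac3 and Hdac7) reached 50 TPM in both. For scale, 46.8% of 21474 protein-coding genes reached 1 TPM in both replicates, and the median of those that did was 23.0 TPM. By mean TPM the order was Hdac2, Hdac7, Hdac1, Hdac3, Hdac5, Hdac10, Hdac6, Hdac8, Hdac4 and Hdac11, from percentile 97.5 to percentile 58.0 of protein-coding genes. Of 45 pairs of members, 43 stood in the same order in both replicates, the exceptions being Hdac2 with Hdac7 and Hdac1 with Hdac3. Among the 9 neighbours in this order, 4 were separated by more than their replicate ranges and the deposited bounds of each library, namely Hdac7 above Hdac1, Hdac3 above Hdac5, Hdac6 above Hdac8 and Hdac4 above Hdac11. The other 5 neighbours were not separated. The place of Hdac1 depends on a near-identical copy, Gm10093: with it added, Hdac1 stood at 124 and 113 TPM, above Hdac7 in replicate 1 (119 TPM) and below it in replicate 2 (284 TPM).

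**Figure D1:**
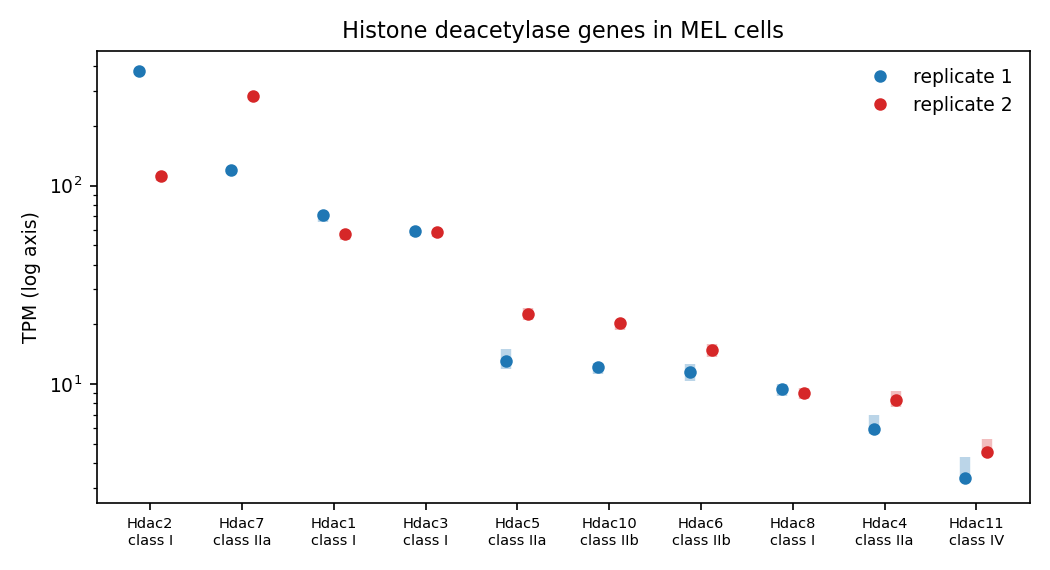
TPM of each histone deacetylase gene (log axis) in replicate 1 (blue) and replicate 2 (red), ordered by mean level, with the deposited bounds of each library as pale bars. Hdac2 lies at 377 TPM in replicate 1 and 112 TPM in replicate 2 and Hdac7 at 119 and 284 TPM, while Hdac3 lies at 59.1 and 58.2 TPM.

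Among class I genes, Hdac2 (chr10:36974544-37001889) stood at 377 TPM in replicate 1 and 112 TPM in replicate 2, a mean of 245 ± 188 TPM (SD, n = 2). It was the most abundant member in replicate 1 and the second in replicate 2. Hdac3, which gives the NCoR complex its activity, stood at 59.1 and 58.2 TPM, a mean of 58.6 ± 0.672 TPM (SD, n = 2). Hdac8, which acts outside those complexes and removes acetyl groups from the cohesin subunit Smc3, stood at 9.40 and 8.97 TPM, a mean of 9.19 ± 0.304 TPM (SD, n = 2; chrX:102284639-102505359). The replicates lay close together for Hdac3 and Hdac8 and far apart for Hdac2.

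Hdac1 (chr4:129516104-129542713) stood at 71.1 TPM in replicate 1 and 57.1 TPM in replicate 2, a mean of 64.1 ± 9.89 TPM (SD, n = 2). Its level is uncertain, because the processed pseudogene Gm10093 (chr17:78491582-78493025) matches it at 99.4% over 1444 nt. Gm10093 was listed at 52.6 and 56.3 TPM, and the posterior SD of the read assignment was 168 reads in replicate 1 and 128 reads in replicate 2 for Hdac1 and the same, to 3 digits, for Gm10093. Hdac1 took 57.5% and 50.4% of the TPM of both genes together. That sum was 124 and 113 TPM, a mean of 119 ± 7.26 TPM (SD, n = 2). If every read of the copy were from Hdac1, the gene would stand near this sum, which is approximate because TPM depends on the length of each gene. Hdac1 and Hdac3 could not be ordered from the values assigned to them.

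Of the class IIa genes described here, Hdac7 (chr15:97792664-97844502) was the highest. It stood at 119 TPM in replicate 1 and 284 TPM in replicate 2, a mean of 201 ± 116 TPM (SD, n = 2). It ranked second in replicate 1 and first in replicate 2, and its levels overlapped those of Hdac2. The gene shares 29 nt of exon with the end of Slc48a1 on the other strand (111 and 211 TPM), and the use of strand in counting is not given in the sources used here. Hdac5 (chr11:102194432-102230166) stood at 13.1 and 22.4 TPM, a mean of 17.7 ± 6.59 TPM (SD, n = 2). Hdac4 (chr1:91928779-92195699) stood at 5.95 and 8.25 TPM, a mean of 7.10 ± 1.63 TPM (SD, n = 2). The antisense-strand gene Gm26720 inside it, with 3536 nt of shared exon, was listed at 0.03 and 0 TPM. Hdac7 exceeded Hdac5 and Hdac4 in both replicates.

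Class IIb and class IV hold Hdac10, Hdac6 and Hdac11. Hdac10 (chr15:89123307-89128700) stood at 12.2 and 20.2 TPM, a mean of 16.2 ± 5.66 TPM (SD, n = 2). Hdac6 (chrX:7930120-7947889), the tubulin deacetylase, stood at 11.4 and 14.9 TPM, a mean of 13.2 ± 2.45 TPM (SD, n = 2). Hdac11 (chr6:91156665-91174692) stood at 3.36 and 4.56 TPM, a mean of 3.96 ± 0.849 TPM (SD, n = 2), the lowest of the 10 genes in both replicates. The replicate ranges of Hdac10 and Hdac6 overlapped, and that of Hdac11 lay below every other member. The reads behind these levels ranged from 391 (Hdac11, replicate 1) to 55491 (Hdac7, replicate 2) expected counts.

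Summed over the 10 genes, the level was 682 TPM in replicate 1 and 590 TPM in replicate 2, but the classes changed places. Class I held 75.8% of it in replicate 1 and 40.0% in replicate 2, a mean of 57.9% ± 25.3 (SD, n = 2). In expected counts, which are not scaled by length, class I held 57.0% and 26.2%, a mean of 41.6%. By TPM, class IIa held 20.3% and 53.3%, class IIb 3.46% and 5.94%, and class IV 0.492% and 0.773%. Hdac2 alone made up 55.3% of their TPM in replicate 1 and 19.0% in replicate 2, and Hdac7 17.5% and 48.1%. Without Hdac2 and Hdac7, an alternative chosen after seeing the data, the other 8 members summed to 186 and 195 TPM, and class I held 75.2% and 63.9%.

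Between the replicates, 3 of the 10 members differed at an adjusted p under 0.05 and by at least 2-fold, in the exact conditional binomial test of expected counts with library sizes scaled by TMM. By the same rule 2976 of 15251 genes differed (19.5%). Of these, 2 members were higher in replicate 2 (Hdac7 and Hdac5), as were 7.57% of all genes, and 1 was higher in replicate 1 (Hdac2), as were 11.9% of all genes. The test compares these libraries alone and covers counting error only: at an adjusted p under 0.05 without a minimum fold, 9 of 10 members and 77.2% of all genes differed. With library totals in place of TMM, 54.5% of called genes were higher in replicate 2, against 38.8% with TMM.

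Hdac2 had 22949 expected counts in replicate 1 and 10487 in replicate 2, a log2 ratio of replicate 2 over replicate 1 of -1.49 ± 0.02 (counting error), or 2.81-fold higher in replicate 1. Hdac7 had 20007 and 55491 expected counts, a log2 ratio of 1.11 ± 0.01 (counting error), or 2.16-fold higher in replicate 2. For both, the adjusted p was too small to be represented. Hdac5 had 1021 and 2744 expected counts, a log2 ratio of 1.07 ± 0.05 (counting error) and 2.09-fold higher in replicate 2, with an adjusted p of 1.81e-98 in the exact binomial test. In RNA of whole cultures, fewer cells that express a gene and less of its RNA per cell cannot be told apart.

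The other members differed by less than 2-fold. The log2 ratio of replicate 2 over 1 was 0.65 for Hdac10, 0.51 for Hdac6, 0.44 for Hdac11, 0.29 for Hdac4 and -0.45 for Hdac1. For Hdac1 plus Gm10093 it was -0.19. The ratio for Hdac3 was 0.15 in counts, but -0.02 in TPM, of which features other than genes held 2.93% in replicate 1 and 6.24% in replicate 2. Hdac8 had a log2 ratio of -0.06 ± 0.07 (counting error), which did not pass (adjusted p = 0.44, exact binomial test) and which turned to 0.06 with library totals, a scaling that shifts all ratios by 0.12. Of the 10 members, 7 were higher in replicate 2 with TMM and 8 with library totals, and their median log2 ratio was 0.37 against 0.02 over all genes tested with TMM.

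GC content, the share of G and C bases in a gene's transcripts, moved with these ratios. The median log2 ratio of all tested genes ran from -1.55 for genes of 30 to 35% GC to 0.85 for genes of 60 to 65% GC. Hdac2 has the lowest GC content of the 10 genes (42.1%), while Hdac7 (59.7%) and Hdac5 (60.04%) have the highest. Across the 10 members, which share both libraries, Pearson's r between GC content and log2 ratio was 0.89 and Spearman's rho 0.92, given as a description. With the trend of all genes removed, an alternative chosen after seeing the data, 0 members passed the same rule, against 1144 of 15102 genes (7.58%). The log2 ratio was then -0.59 for Hdac2, 0.30 for Hdac7 and 0.24 for Hdac5. All 3 kept their direction and lost the 2-fold difference. Hdac1 then stood at -0.59, the same as Hdac2 to 2 decimals, and Hdac8 at 0.52. The direction turned for Hdac8 and Hdac11 (-0.27). Hdac4 (-0.01 ± 0.04), Hdac10 (-0.02 ± 0.05) and Hdac6 (0.02 ± 0.05) then lay within counting error of no difference. By sign alone, 5 of 10 members were higher in replicate 2.

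**Figure D2:**
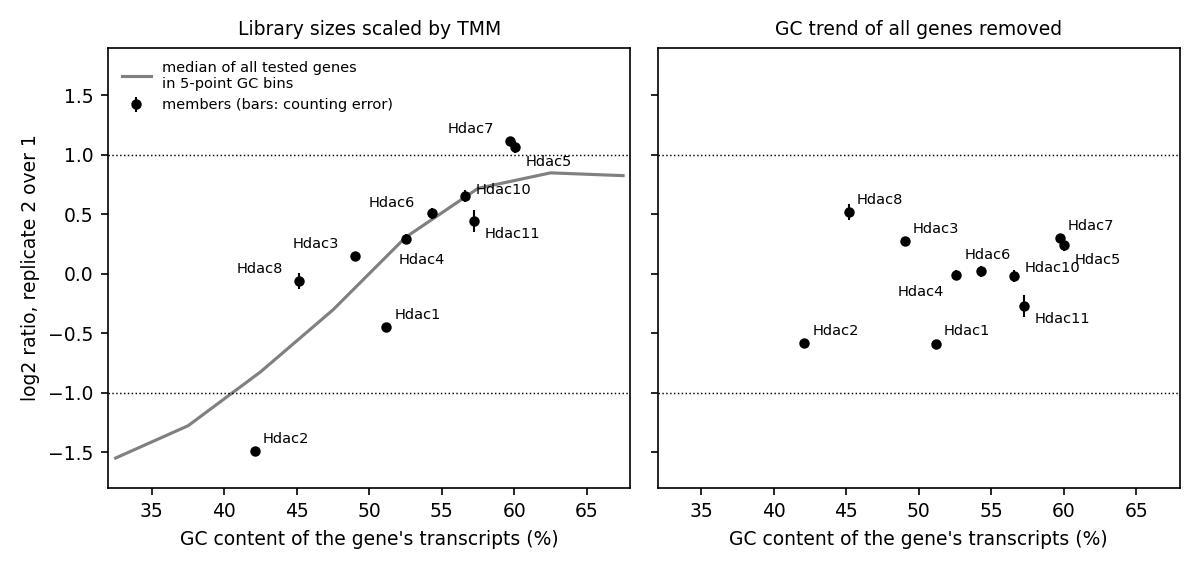
Log2 ratio of replicate 2 over replicate 1 against GC content (%) for the 10 genes, before (left) and after (right) removal of the trend of all genes, with bars for counting error, dotted lines at 2-fold and a grey line for the median of all tested genes in bins of 5 percentage points. On the left, Hdac2 lies below and Hdac5 and Hdac7 above the 2-fold lines, and on the right all 10 lie between -0.59 and 0.52.

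The deposited transcript values split each gene into its annotated RNA forms. All 86 transcripts listed for the 10 genes were found in the annotation, 84 of them with the same length. Protein-coding forms held the majority of TPM in both replicates for 9 of 10 members, the exception being Hdac10, and 7 of 10 members had the same leading form in both replicates. Nearly all of the output of Hdac8 and Hdac11 was 1 coding form each: Hdac8-201 held 97.9% and 98.7%, and Hdac11-201 95.5% and 96.5%. Hdac1-201 held 93.1% and 82.3% of Hdac1, and Hdac4-202 83.2% and 67.9% of Hdac4, with a shorter coding form, Hdac4-205, at 11.3% and 5.94%. Because TPM divides reads by length, short forms gain a larger share in TPM than in reads. The length used is 44 nt below the transcript's own.

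**Figure D3:**
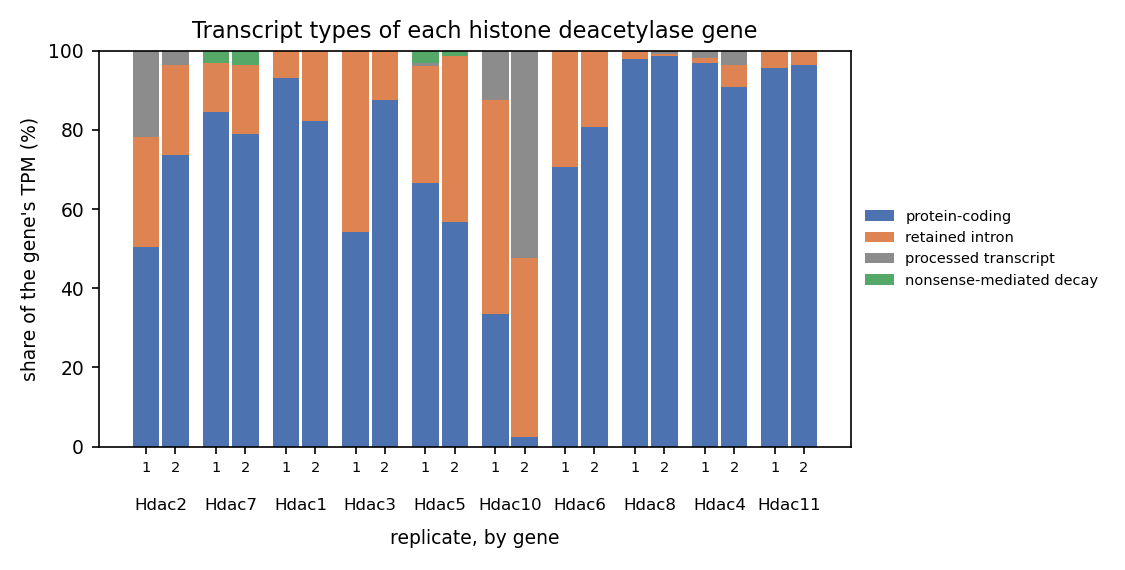
Share of each gene's TPM (%) held by protein-coding, retained-intron, processed and nonsense-mediated decay transcripts in replicates 1 and 2, with genes ordered by mean level. Coding forms hold most of the bars of Hdac8, Hdac4 and Hdac11, and 33.4% and 2.48% of Hdac10.

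The leading form of Hdac2, Hdac2-201, held 50.2% of the gene's TPM in replicate 1 (189 TPM) and 73.1% in replicate 2 (81.7 TPM). Hdac2-203, the retained-intron form of 539 nt whose intron-exon border is shown above, held 27.7% (105 TPM) and 22.8% (25.6 TPM). Processed transcript Hdac2-204 held 21.8% (82.1 TPM) and 3.56% (3.98 TPM). All 3 forms were higher in replicate 1, as was Hdac2-202 (1.33 and 0.58 TPM), and Hdac2-204 had the largest fold difference. GC content was 44.4% for Hdac2-201, 41.9% for Hdac2-202, 39.9% for Hdac2-203 and 38.96% for Hdac2-204. Counted in reads, Hdac2-203 made up 10.4% and 7.10% and Hdac2-201 74.5% and 89.9% of the gene.

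Hdac3 was split in replicate 1 between the coding form Hdac3-201 (54.1%, 32 TPM) and the retained-intron form Hdac3-204 (41.8%, 24.7 TPM). In replicate 2 Hdac3-201 held 87.7% (51.0 TPM) and Hdac3-204 7.26% (4.22 TPM). The level of the gene was thus alike in both libraries, 59.1 and 58.2 TPM, while that assigned to its coding form differed. Both forms have other lengths in the annotation used here than in the deposited files. Restricted to coding forms, class I held 69.5% of the TPM of the 10 genes in replicate 1 and 42.0% in replicate 2.

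Hdac7 came mainly from its distal start. Transcripts that begin within 300 nt of the distal RefSeq start held 71.3% of the gene's TPM in replicate 1 (85.1 TPM) and 53.5% in replicate 2 (152 TPM). Those at the 2 middle starts held 10.1% and 10.4%. The form from the proximal start, Hdac7-208, held 5.12% (6.11 TPM) and 13.4% (37.9 TPM). In both replicates the distal start ranked first, and the share of the proximal start was larger in replicate 2. As the sequences above show, neither the distal nor the proximal stretch has the CpG density of the Hdac2 promoter, whereas the middle stretches hold 25 and 21 CpG.

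The 195-nt exon of Hdac7 was present in 86.7% of the TPM of transcripts spanning it in replicate 1 and 74.99% in replicate 2, a mean of 80.8% ± 8.27 (SD, n = 2). Its 72-nt acceptor-dependent part was present in 64.1% and 59.2%, a mean of 61.7% ± 3.51 (SD, n = 2). Both inclusions were thus the majority form in both libraries. By single transcripts, Hdac7-203 led in replicate 1 (43.3%, against 21.9% in replicate 2) and Hdac7-206 in replicate 2 (30.1%, against 28.1% in replicate 1). A retained-intron form at the 3′ end of the gene, Hdac7-211, held 12.4% and 17.6%.

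**Figure D4:**
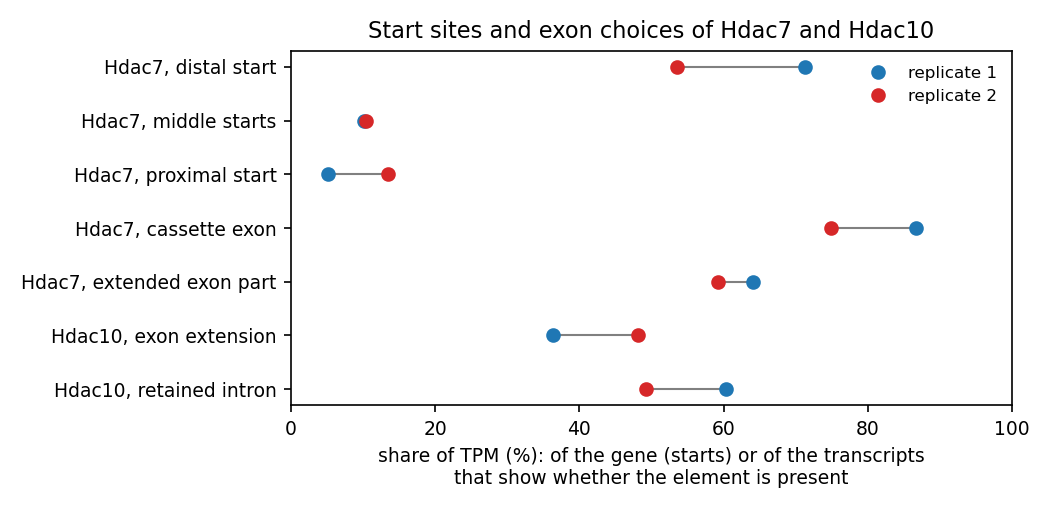
Share of TPM (%) from each start region of Hdac7, and share of TPM with each named exon, exon part or intron of Hdac7 and Hdac10, in replicate 1 (blue) and replicate 2 (red). The distal start of Hdac7 lies at 71.3% and 53.5%, and its skipped exon at 86.7% and 74.99%.

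Hdac5 had no stable leading form. The long coding form Hdac5-202 was listed at 0 in replicate 1 and held 30.8% in replicate 2 (6.90 TPM), while Hdac5-204, which differs from it in length by 3788 against 3759 nt, held 24.98% and 9.29%. A short form of 427 nt annotated as coding, Hdac5-214, held 36.97% and 13.99% of TPM but 8.36% and 2.58% of the reads. It is counted in the share of TPM held by coding forms of Hdac5, 66.7% and 56.7%. The retained-intron form Hdac5-211 held 5.50% and 22.5%. The deposited bounds for Hdac5-202 in replicate 1 ran from 0 to 1.96 TPM, below those in replicate 2 (3.71 to 8.14 TPM).

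Hdac10 was the member with the smallest coding share. Its coding forms together held 33.4% of TPM in replicate 1 and 2.48% in replicate 2. Hdac10-201, the full coding form, stood at 3.71 TPM and was listed at 0 in replicate 2, where its deposited bounds ran from 0 to 2.12 TPM. Processed transcript Hdac10-204 was listed at 0 in replicate 1 and at 7.17 TPM in replicate 2, with bounds of 0 to 1.91 and 4.27 to 7.22 TPM. Retained-intron form Hdac10-203 held 18.9% and 34.7%, and Hdac10-207 25.5% and 0.25%. The bounds of the 2 replicates overlapped for Hdac10-201, Hdac10-203 and Hdac10-207, and did not for Hdac10-204.

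Grouped by what distinguishes them, the Hdac10 forms were closer between replicates. Those with the 11-nt extension shown above made up 36.3% and 48.1% of the TPM of forms that cover the exon, a mean of 42.2% ± 8.34 (SD, n = 2). Those that keep an intron of 278 nt (chr15:89124254-89124531) made up 60.4% and 49.2%, a mean of 54.8% ± 7.86 (SD, n = 2). Hdac6 was mostly coding, with Hdac6-202 at 39.2% and 51.0% and Hdac6-201 at 19.1% and 17.7%, beside the retained-intron form Hdac6-207 at 21.4% and 7.86% and the short coding form Hdac6-209 at 5.25% and 12.02%.

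Related members were compared by the log2 ratio of their TPM within a library. A pair was said to stand apart if its sign was shared by the replicates and its mean size exceeded 1.29, the 95th percentile of the difference between replicates over 10044 protein-coding genes. With 2 replicates an exact sign-flip test cannot give a p below 0.5. Of 9 pairs of members, 6 stood apart. The widest was Hdac7 over Hdac4, 25.9-fold, followed by Hdac7 over Hdac5, 10.7-fold, and Hdac3 over Hdac8, 6.33-fold. Hdac3 over Hdac8 was also the steadiest, with log2 ratios of 2.64 and 2.68.

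Hdac2 stood above its close relative Hdac1, with a log2 ratio of Hdac1 over Hdac2 of -2.41 in replicate 1 and -0.97 in replicate 2. With its copy Gm10093 added to Hdac1, an alternative chosen after seeing the data, the log2 ratio was -1.61 and 0.02. The sum and Hdac2 were thus about level in replicate 2 (113 and 112 TPM), and the pair no longer stood apart. Against Hdac3, Hdac2 had log2 ratios of 2.67 and 0.94. In replicate 2 alone neither Hdac1 over Hdac2 nor Hdac2 over Hdac3 reached the limit of 1.29, so both calls rest on replicate 1. Hdac10 over Hdac11 gave 1.83 and 2.12. The pairs that did not stand apart were Hdac1 with Hdac3 (0.27 and -0.03), Hdac6 with Hdac10 (-0.09 and -0.44) and Hdac4 with Hdac5 (-1.12 and -1.43, a mean of -1.28 just inside the limit).

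The genes that histone deacetylases work with were described from 12 lists of 119 genes, of which 111 reached 1 TPM in both replicates. Differences between replicates are given for list genes, here and below, without removal of the GC trend. Of the 114 tested between replicates, 3 were higher in replicate 2 (Mbd3, Mef2b and Sirt6) and 9 in replicate 1, against 7.57% and 11.9% of all genes. The NuRD complex, which joins Hdac1 and Hdac2 to a chromatin remodeler, had 12 of 13 genes at 1 TPM in both and a median of 117 TPM, against 0.49 TPM over all protein-coding genes and 23.0 TPM over those detected. Its highest genes were the histone-binding subunit Rbbp7 (508 and 415 TPM), Cdk2ap1 (214 and 323 TPM), Mta1 (206 and 310 TPM) and the remodeler Chd4 (193 and 176 TPM). Chd5, an alternative remodeler, was the exception, at 0.81 and 0.69 TPM, and Gatad2b stood at 29.0 and 27.9 TPM.

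The SIN3 complex had 17 of 17 genes at 1 TPM in both and a median of 39.6 TPM (35.4 in replicate 1 and 36.4 in replicate 2). Morf4l1, a chromodomain protein, led it at 469 and 246 TPM, and Arid4a and Brms1l were lowest, at 21.5 and 9.87 TPM and at 13.8 and 9.07 TPM. The scaffolds Sin3a (46.9 and 36.4 TPM) and Sin3b (50.1 and 85.2 TPM) did not stand apart. In the CoREST complex, 10 of 10 genes reached 1 TPM, with a median of 32.9 TPM (22.7 in replicate 1 and 32.8 in replicate 2). The demethylase Kdm1a stood at 67.0 and 67.8 TPM, and the scaffold Rcor1 (51.6 and 32.9 TPM) stood 3.85-fold above Rcor3. MiDAC had 3 of 4 genes at 1 TPM, with Dnttip1 at 36.1 and 45.1 TPM and Elmsan1 at 13.6 and 19.0 TPM, while Zfp541 was listed at 0 and 0.01 TPM. The complexes of Hdac1 and Hdac2 were thus each represented, NuRD at the highest median.

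The NCoR complex, the partner of Hdac3, had 5 of 5 listed genes at 1 TPM. Its median was 66.2 TPM by the mean of the replicates, above the median within replicate 1 (46.7 TPM) and within replicate 2 (48.7 TPM). Its scaffold Ncor1 stood at 182 and 146 TPM. Tbl1x (46.5 and 32.2 TPM) stood 3.05-fold above Tbl1xr1 and apart from it, though its log2 ratio in replicate 1 alone, 1.28, was just inside the limit. Cops2 was higher in replicate 1 (126 and 48.7 TPM). Of the genes listed for the metabolism of the inositol phosphates bound between class I enzymes and their corepressors, 7 of 7 reached 1 TPM. Their median was 9.60 TPM, with Ipmk highest at 36.4 and 28.0 TPM.

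Partners of class IIa enzymes were uneven. Of 4 MEF2 genes, Mef2d (42.3 and 87.7 TPM) and Mef2a (16.3 and 9.92 TPM) reached 1 TPM in both and stood apart 4.76-fold. Mef2c stood at 0.02 and 0.01 TPM, and Mef2b was listed at 0 in replicate 1 and at 3.04 TPM in replicate 2. Of 19 export kinases and 14-3-3 genes, 16 reached 1 TPM in both, with a median of 14.6 TPM. The 4 highest were all 14-3-3 genes, led by Ywhae (1226 and 640 TPM) and Ywhaz (715 and 329 TPM), whereas Prkd1, a protein kinase D gene, was listed at 0 in both and Camk2d at 0.03 TPM.

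Substrates and partners of Hdac6 and Hdac8 had 14 of 14 genes at 1 TPM and a median of 184 TPM over both replicates. Replicate 1 gave 257 TPM and replicate 2 gave 118 TPM, the latter level with NuRD in that replicate (117 TPM). The chaperone genes Hsp90ab1 (4499 and 3129 TPM) and Hsp90aa1 (2654 and 1112 TPM), the tubulin gene Tuba1b (975 and 1513 TPM) and the ubiquitin gene Ubb (921 and 1418 TPM) led it. Tubulin genes resemble one another closely, and reads could be divided among them by the counting model. Atat1, the acetyltransferase that opposes Hdac6 on tubulin, was lowest at 7.02 and 10.8 TPM. Of the 14 genes, 4 were higher in replicate 1, as were 11.9% of all genes: Hsp90aa1 and the cohesin acetyltransferase Esco1, and, named after their values were seen, the cohesin gene Smc3 and the acetyltransferase gene Esco2. For Hdac10, 4 of 5 polyamine genes reached 1 TPM, with Odc1, the first enzyme of polyamine synthesis, at 707 and 450 TPM, Sat1, which acetylates spermidine and spermine, at 115 and 55.7 TPM, and Paox at 0.09 and 0.15 TPM.

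**Figure D5:**
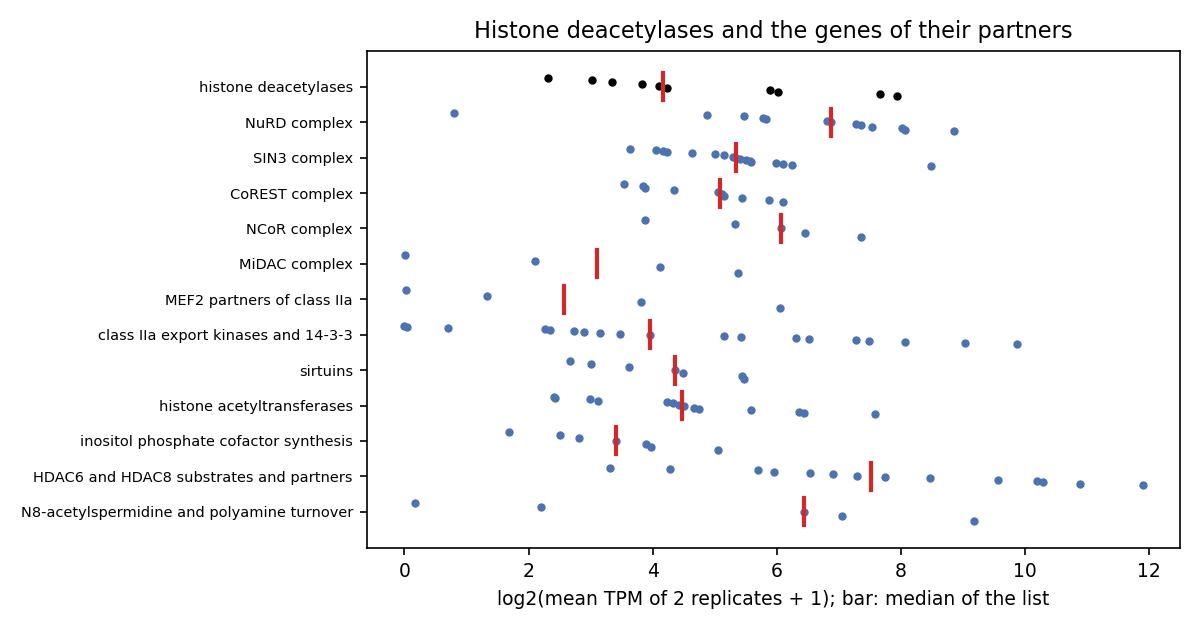
Mean TPM of 2 replicates, as log2(TPM + 1), for each histone deacetylase (black) and each gene of the 12 lists (blue), with the median of each list as a red bar. The medians of NuRD (117 TPM) and of the Hdac6 and Hdac8 substrates (184 TPM) lie farthest to the right, the latter between 257 TPM in replicate 1 and 118 TPM in replicate 2.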

How the data were processed

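Reads of 2 polyA RNA-seq libraries were placed on the mm10 genome and its transcriptome, with gene models of GENCODE M4, per the text file deposited with each sample. Which aligner and quantifier made the values, and whether strand was used, is not given in the sources used here. Expected counts in the deposited tables are reads per gene or transcript as divided by a model, and they were rounded to whole numbers for the test. Deposited TPM are scaled for effective length and to a set total, and deposited FPKM for effective length and depth. The deposited percent columns give each transcript's share of its gene, and shares here were recomputed from TPM. Further deposited score columns hold the posterior SD of a count and the bounds of an interval of TPM, whose level is not stated. These bounds go with the posterior mean, so a TPM can lie outside them.

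GENCODE M21, on that same build, gave symbols, types and positions, by identifier without version (42462 of 43346 genes had a symbol). The 26345 other features of the files (spike-ins and features with numeric identifiers, 0.0574% and 0.131% of counts) were left out. These features held 2.93% of TPM in replicate 1 and 6.24% in replicate 2. Gene TPM were not rescaled after that step, so gene TPM stand slightly lower in replicate 2 on that account. Members, lists, pairs and tests were chosen with earlier results of these data known. Named genes are the members, their transcripts with at least 10% of the gene's TPM in either replicate, both genes of each pair, the 4 highest and 2 lowest genes of each list, the markers, and genes that overlap a member. Listed names Fam60a and Mideas were matched by synonym. The values of 1 listed gene are not reported here, and it was left out of its list and pair.

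Replicates were compared over 15251 genes whose counts summed to 20 or more. The test was the exact conditional binomial, two-sided, with library sizes from edgeR 4.0.16 (TMM), Benjamini-Hochberg adjustment and a minimum of 2-fold. The quasi-likelihood test has no residual degrees of freedom with 1 library a side. Counts took a prior of 0.5, TPM ratios a pseudocount of 0.1, and a lowess curve (fraction 0.3) described the trend with GC. Near-identical copies were sought with blastn 2.17.0 (at least 90% identity over 100 nt). The steps were tested on counts simulated with counting error only. With a GC trend put in, the test called 582 of 14902 unchanged genes, and 1 with that trend removed. Without a GC trend it called 1 of 15051. The alternatives were DESeq2 1.42.0 size factors, library totals, other count and TPM minimums, FPKM, posterior mean TPM, other pseudocounts and percentiles, shares of expected counts, protein-coding genes alone and each replicate left out. Chosen after seeing the data were removal of the GC trend, coding transcripts alone, leaving out Hdac2 and Hdac7, and the addition of Gm10093 to Hdac1. Scripts ran in R 4.3.3 and in Python 3.11.15 with scipy 1.17.1, pandas 2.3.3, numpy 2.4.6, matplotlib 3.10.9 and statsmodels 0.14.6.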

Additional observations from a re-analysis of the deposited data

How the results depend on the processing

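No paired analysis was possible because the labels give 1 group, whose replicates have no counterpart in another. Members at 1 TPM in both replicates numbered 10, and 9 at a minimum of 5 TPM. The count of genes differing between the replicates was 2976, and 1900 with a summed count of at least 200, 1856 with protein-coding genes alone and 1144 with the GC trend removed. With that trend removed, the log2 ratio was -0.59 for Hdac2, 0.30 for Hdac7 and 0.24 for Hdac5, all under 2-fold. It changed sign for Hdac8 (0.52), Hdac11 (-0.27), Hdac4 (-0.011) and Hdac10 (-0.021), of which Hdac4 and Hdac10 lay within counting error of no difference. Library totals turned Hdac8 to 0.061, and the TPM ratio turned Hdac3 to -0.023 and put Hdac5 at 0.77, under 2-fold. Those TPM were not rescaled after features other than genes were left out. The mean TPM of Hdac3 was 57.3 by posterior mean, and that of Hdac1 119 with Gm10093 added, where the mean log2 ratio of Hdac1 over Hdac2 was -0.79 and the pair no longer stood apart. As a share of expected counts, Hdac1-201 held 95.7%, Hdac2-201 82.2%, Hdac8-201 98.96%, Hdac4-202 93.7%, Hdac5-214 5.47%, Hdac7-206 32.3%, Hdac6-202 60.3% and Hdac11-201 98.8%. Of posterior mean TPM, Hdac8-201 held 96.1% and Hdac11-201 85.0%. The cause was not tested where it is not in the alternative itself. Without each replicate in turn, the class I share ran from 40.0 to 75.8%, the log2 ratio of Hdac1 over Hdac3 ran from -0.026 to 0.27 and that of Mbd2 over Mbd3 from -0.90 to 0.11. The list medians ran from 108 to 117 TPM (NuRD), 35.4 to 36.4 (SIN3), 22.7 to 32.8 (CoREST), 46.7 to 48.7 (NCoR), 14.1 to 15.3 (sirtuins) and 19.0 to 21.9 (histone acetyltransferases). The widest were 118 to 257 TPM (Hdac6 and Hdac8 substrates) and 55.7 to 115 TPM (polyamine genes). For SIN3, CoREST, NCoR and the sirtuins, the median taken over the means of both replicates lay above both single-replicate medians. Pairs standing apart numbered 14, and 10 to 16 under the alternatives tried. Groups of 2 replicates are too small to test for a sample that stands apart. Counting error for the members ran from 0.01 to 0.09 on the log2 scale, and for Hdac8 it was as large as the difference between the replicates.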

Other observations

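The enzymes that oppose histone deacetylases, and the other family of deacetylases, were expressed throughout. All 14 histone acetyltransferase genes listed reached 1 TPM in both replicates, with a median of 21.2 TPM. Hat1, which acetylates newly made histones, stood at 256 and 126 TPM, Kat2a (GCN5) at 64.2 and 108 TPM, Kat7 at 91.0 and 71.97 TPM and Naa60 at 42.7 and 51.1 TPM. Crebbp (3.63 and 5.07 TPM) and Kat6b (4.51 and 4.13 TPM) were lowest. Of 2 pairs of close relatives, Kat2a stood 11.2-fold above Kat2b and Ep300 4.99-fold above Crebbp by the mean log2 ratio, and both pairs stood apart. In replicates 1 and 2 the log2 ratios were 2.71 and 4.25 for Kat2a over Kat2b, and 2.62 and 2.02 for Ep300 over Crebbp. Hat1 was higher in replicate 1 by the 2-fold rule.

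All 7 sirtuins, NAD-dependent deacetylases that the inhibitors of the zinc-dependent family do not hit, also reached 1 TPM. Their median was 19.5 TPM by the mean of the replicates, above the median within replicate 1 (14.1 TPM) and within replicate 2 (15.3 TPM). Sirt7 (32.1 and 54.7 TPM) and Sirt2 (30.9 and 53.9 TPM) were highest, and Sirt4 (6.15 and 7.84 TPM) and Sirt5 (5.02 and 5.70 TPM) lowest. Sirt1 and Sirt2 did not stand apart, with log2 ratios of -0.38 and -1.81. Sirt6 stood at 14.1 and 28.8 TPM and was higher in replicate 2 by the 2-fold rule.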
